A study of Homo sapiens with 12 samples.

Results

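LY96, 5 chemokines and 4 response genes of the NF-kB pathway were followed in RKO cells, a human colon carcinoma line, after arginine was lowered. The 10 genes were chosen by a list of Ensembl transcript IDs, 1 transcript for each gene (of 2 IDs listed for TNFAIP3, 1 was present), and all 10 had a row among the 19686 transcripts of the RNA table and the 19849 of the footprint table. Starved cells had been held for 24 hours in arginine-free DMEM with dialysed serum and 12.5 uM arginine, and fed cells for the same time in that medium with 400 uM arginine. Both groups were wild type and of the same line, and each had 3 RNA-seq libraries and 3 ribosome profiling libraries. RNA-seq measures transcript levels, and ribosome profiling counts the fragments that ribosomes protect (footprints) on each transcript. The labels do not say whether replicates 1 to 3 were separate cultures, so the spread between libraries may be technical.

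NF-kB transcription factors are held in the cytoplasm by inhibitor proteins until a receptor signal removes the inhibitor, after which they enter the nucleus and raise transcription of chemokines, adhesion molecules and their own inhibitors. LY96 (ENST00000284818), also called MD2, is the extracellular partner of the receptor TLR4 and binds bacterial lipopolysaccharide. CXCL8 (ENST00000307407) and the closely related CXCL1 (ENST00000395761), CXCL2 (ENST00000508487) and CXCL3 (ENST00000296026) attract neutrophils. CCL2 (ENST00000225831) attracts monocytes. NFKBIA (ENST00000216797) encodes the inhibitor that binds NF-kB dimers, and TNFAIP3 (ENST00000237289) a ubiquitin-editing enzyme that dampens the signal. RELB (ENST00000221452) encodes an NF-kB subunit and ICAM1 (ENST00000264832) a surface adhesion molecule for leukocytes.

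The promoters are shown first, because the chemokine and inhibitor genes are known for NF-kB sites close to their start. The RefSeq promoter table (build GRCh38.p14, 250 bases before to 50 after each gene start) held 7 of the 10 genes and none of LY96, CCL2 and RELB. Here 2 motifs were searched on both strands, the 9-base site GGAANTTCC, which reads the same on either strand, and the 10-base NF-kB consensus, whose matches may overlap that site. The 9-base site was in 6 of the 7 promoters and in 0.965% of all 35116 promoters of the table. The consensus was in 5 of the 7 and in 11.3% of all, and at least one of the motifs was in all 7 and in 11.8% of all. The stretches of 60 bases around the matches, with every matching base of either motif in capitals, read 5′ to 3′ as follows.
CXCL8 (chr4:73740453-73740512, plus strand): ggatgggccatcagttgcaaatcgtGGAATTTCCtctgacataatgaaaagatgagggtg
CXCL1 (chr4:73869290-73869349, plus strand): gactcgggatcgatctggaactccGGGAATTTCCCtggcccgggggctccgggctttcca
CXCL2 (chr4:74099238-74099297, minus strand): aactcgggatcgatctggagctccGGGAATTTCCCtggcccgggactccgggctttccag
CXCL3 (chr4:74038733-74038792, minus strand): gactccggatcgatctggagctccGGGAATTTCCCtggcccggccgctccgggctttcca
NFKBIA (chr14:35404796-35404855, minus strand): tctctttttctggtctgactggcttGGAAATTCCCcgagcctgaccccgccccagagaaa
TNFAIP3 (chr6:137867167-137867226, plus strand): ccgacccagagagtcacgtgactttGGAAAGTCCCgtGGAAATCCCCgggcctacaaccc
ICAM1 (chr19:10270909-10270968, plus strand): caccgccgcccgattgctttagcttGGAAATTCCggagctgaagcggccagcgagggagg

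The 9-base site began 91 bases before the gene start in CXCL8, 78 in CXCL1 and CXCL3, 77 in CXCL2, 81 in NFKBIA and 186 in ICAM1. TNFAIP3 lacked that site and had 2 consensus matches, beginning 67 and 55 bases before its start. Aligned on the motif without gaps, the stretch of CXCL1 shared 56 of 60 bases with that of CXCL3 and 48 with that of CXCL2, against 24 with that of CXCL8. These matches describe the letters in the window only.

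**Figure D1:**
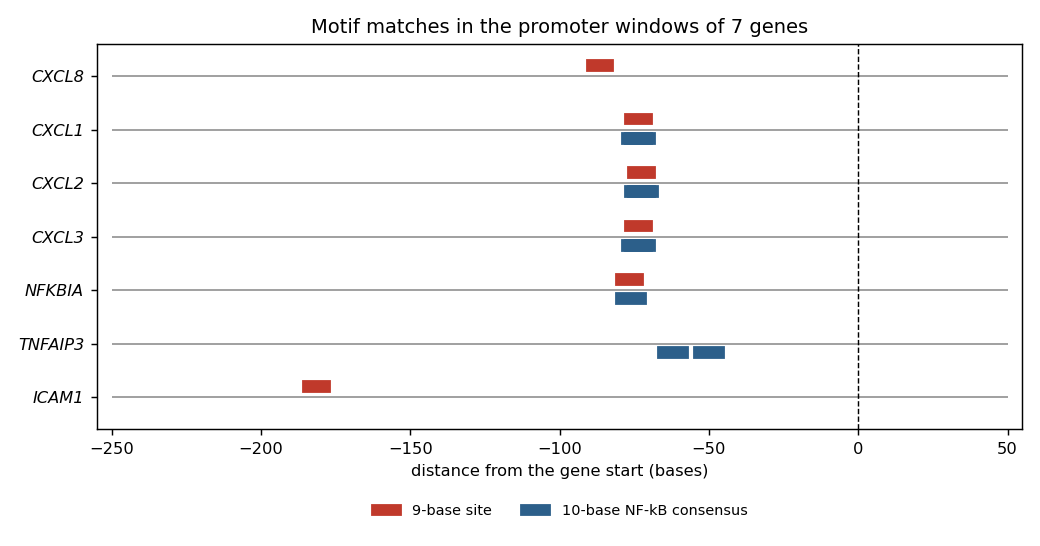
Matches of the 9-base site (red, above the line) and of the 10-base NF-kB consensus (blue, below the line) in the promoters of 7 genes; the x axis is the distance from the gene start in bases (dashed line at 0). The matches of CXCL8, CXCL1, CXCL2, CXCL3 and NFKBIA begin 77 to 91 bases before the start, and that of ICAM1 begins 186 bases before it.

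Library totals lay between 4670881 and 7967215 counts for RNA and between 2063952 and 4364383 counts for footprints. Fold changes are starved over fed, from edgeR's quasi-likelihood test on all transcripts with enough counts, and a transcript was called when its Benjamini-Hochberg adjusted p was under 0.05. LY96 was known for its large rise when the list was drawn up, and the changes of the other genes were known too, so calls are given as a description and no p-value is given for them. Of the 10 genes, 6 had enough counts for the fit (LY96, CXCL8, NFKBIA, TNFAIP3, RELB and ICAM1), and 4 did not (CXCL1, CXCL2, CXCL3 and CCL2). LY96 and CXCL8 had enough counts in 3 starved and 0 fed libraries in both assays. TNFAIP3 footprints had enough in 3 starved libraries and 1 fed library. These genes thus entered those fits through the starved group, so the counts of calls below are not counts over all 10.

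In RNA, all 6 fitted genes were called higher in starved cells by edgeR and by the Wald test of DESeq2, namely the 4 that had enough counts in both groups (NFKBIA, TNFAIP3, RELB and ICAM1) and the 2 that entered through the starved group. Of the 11572 transcripts in the fit 33.8% were called higher and 34.1% lower. The median RNA log2 fold change was 1.42 over the 6 fitted genes and −0.01 over all transcripts. In footprints LY96, CXCL8 and TNFAIP3 were called higher, and these are the 3 genes that entered the footprint fit through the starved group. Of the other 3, which had enough counts in both groups, 0 were called. Of the 13457 transcripts in the footprint fit 18.9% were called higher and 20.9% lower. Because of the filter, nothing is read, here or below, from the genes' counts, medians or ranks against those of all transcripts. The median footprint log2 fold change was 0.89 over the 6 and 0.05 over all. The scale matters for small changes, since the median RNA log2 fold change of all transcripts was −0.13 when library totals alone were used. All 6 RNA calls and all 3 footprint calls were also made with that scaling.

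LY96 rose in both assays, to a clear signal in starved cells against almost none in fed cells. Its RNA had 62, 63 and 53 counts in starved replicates 1 to 3, against 2, 0 and 3 counts in fed replicates 1 to 3. Its footprints had 87, 98 and 128 counts in starved libraries, against 1, 1 and 2 in fed libraries. Every starved library lay far above every fed library in both assays. In a bulk sample, more cells with LY96 RNA and more LY96 RNA per cell cannot be told apart.

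The LY96 RNA level was 8.82 ± 1.22 CPM (counts scaled to the library total) in starved and 0.228 ± 0.217 CPM in fed cells (SD, n = 3 each). The log2 fold change was 5.11 (SE 0.37), which ranked 11 of 11572 from the highest. The footprint level was 35.6 ± 1.39 CPM in starved and 0.553 ± 0.362 CPM in fed cells (SD, n = 3 each). The footprint log2 fold change was 6.08 (SE 0.32), which ranked 2 of 13457. With 5 RNA and 4 footprint counts in all fed libraries, the size of these changes is loose. The SEs above were derived from the F statistic and are smaller than counting error alone at such counts. The ratio of summed counts per total was 34.3 for RNA, with an exact 95% interval of 14.4 to 107 that covers counting error only, and 75.8 for footprints, with an interval of 29.3 to 280.0. The fitted RNA change was 5.74 without RNA fed replicate 3, and the fitted footprint change was 5.47 without footprint fed replicate 1. With a prior count of 2, which pulls changes of low counts towards 0, they were 4.11 and 4.94.

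CXCL8 rose as well, over a fed level of few counts. Its RNA had 120, 69 and 99 counts in starved replicates 1 to 3, against 7, 4 and 1 counts in fed replicates 1 to 3. Its footprints had 44, 29 and 53 counts in starved libraries, against 8, 2 and 3 in fed libraries. The lowest starved library was above the highest fed library in both assays. RNA averaged 14.05 ± 2.66 CPM in starved and 0.626 ± 0.418 CPM in fed cells (SD, n = 3 each), a log2 fold change of 4.60 (SE 0.29). Footprints averaged 14.5 ± 4.28 CPM in starved and 1.41 ± 0.432 CPM in fed cells (SD, n = 3 each), a log2 fold change of 3.17 (SE 0.36). These ranked 15 of 11572 in RNA and 21 of 13457 in footprints. Both SEs are smaller than counting error alone at such fed counts, so the size of these changes is loose. The ratio of summed counts per total was 23.2 for RNA, with an exact interval of 13.1 to 45.3. For footprints it was 9.39, with an exact interval of 5.3 to 18.1. Both intervals are of the kind given for LY96 and cover counting error only. The fitted RNA change was 4.11 without RNA fed replicate 3 and 5.09 without RNA fed replicate 1.

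The other chemokines were close to the limit of detection in both conditions. CXCL1 RNA had 1 count in each starved library, against 0, 1 and 1 counts in fed replicates 1 to 3, and its footprints had 3, 1 and 5 counts in starved against 3, 3 and 1 in fed libraries. The groups overlapped in both assays, and the ratio of summed counts per total was 1.45 for RNA (exact 95% interval 0.166 to 17.3) and 1.25 for footprints (0.413 to 3.93). At this depth a change of CXCL1 of several fold in either direction was not detectable in RNA.

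CXCL2 RNA had 7, 5 and 11 counts in starved replicates 1 to 3, against 4, 2 and 3 counts in fed replicates 1 to 3. Its footprints had 7, 6 and 5 counts in starved libraries, against 3, 2 and 0 in fed libraries. In CPM every starved library was above every fed library in both assays. Such a separation was found for 28.6% of transcripts in the RNA fit and 26.6% in the footprint fit. CXCL2 had too few counts to enter either fit, and the share among transcripts at its level was not computed. The ratio of summed counts per total was 2.47 in RNA (exact 95% interval 1.10 to 6.05) and 3.49 in footprints (1.25 to 12). CXCL3 RNA had 9, 5 and 1 counts in starved libraries, against 1, 1 and 2 in fed libraries, so starved replicate 3 lay within the range of the fed libraries. Its footprints had 10, 6 and 11 counts in starved libraries and 5, 1 and 6 in fed libraries, again with overlap. The ratios for CXCL3 were 3.62 in RNA (1.15 to 15) and 2.18 in footprints (1.07 to 4.72).

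CXCL1, CXCL2 and CXCL3 are close paralogs, and how the authors assigned reads shared between copies is not given in the sources used here, so the split of counts among them is uncertain. Summed over CXCL1, CXCL2 and CXCL3, RNA had 17, 11 and 13 counts in starved replicates 1 to 3, against 5, 4 and 6 counts in fed replicates 1 to 3. Summed footprints had 20, 13 and 21 counts in starved libraries, against 11, 6 and 7 in fed libraries. In CPM the groups did not overlap in either assay, a separation whose shares over the transcripts in each fit are given with CXCL2 above. As a single row in the fit, which it entered only through the starved group in both assays, the sum was called higher in both, with a log2 fold change of 1.49 (SE 0.39) in RNA and 1.07 (SE 0.35) in footprints. For CXCL8 the corresponding log2 fold changes were 4.60 and 3.17, and the difference between genes was not tested.

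CCL2 had no RNA count in any of the 6 libraries, which allows up to 0.148 CPM in starved and 0.153 CPM in fed cells (3 counts over each group). Its footprints had 1, 0 and 1 counts in starved libraries and none in fed libraries, where up to 0.351 CPM is allowed. Both groups were thus at or under the limit set by a count of 0, and no fold change is given.

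**Figure D2:**
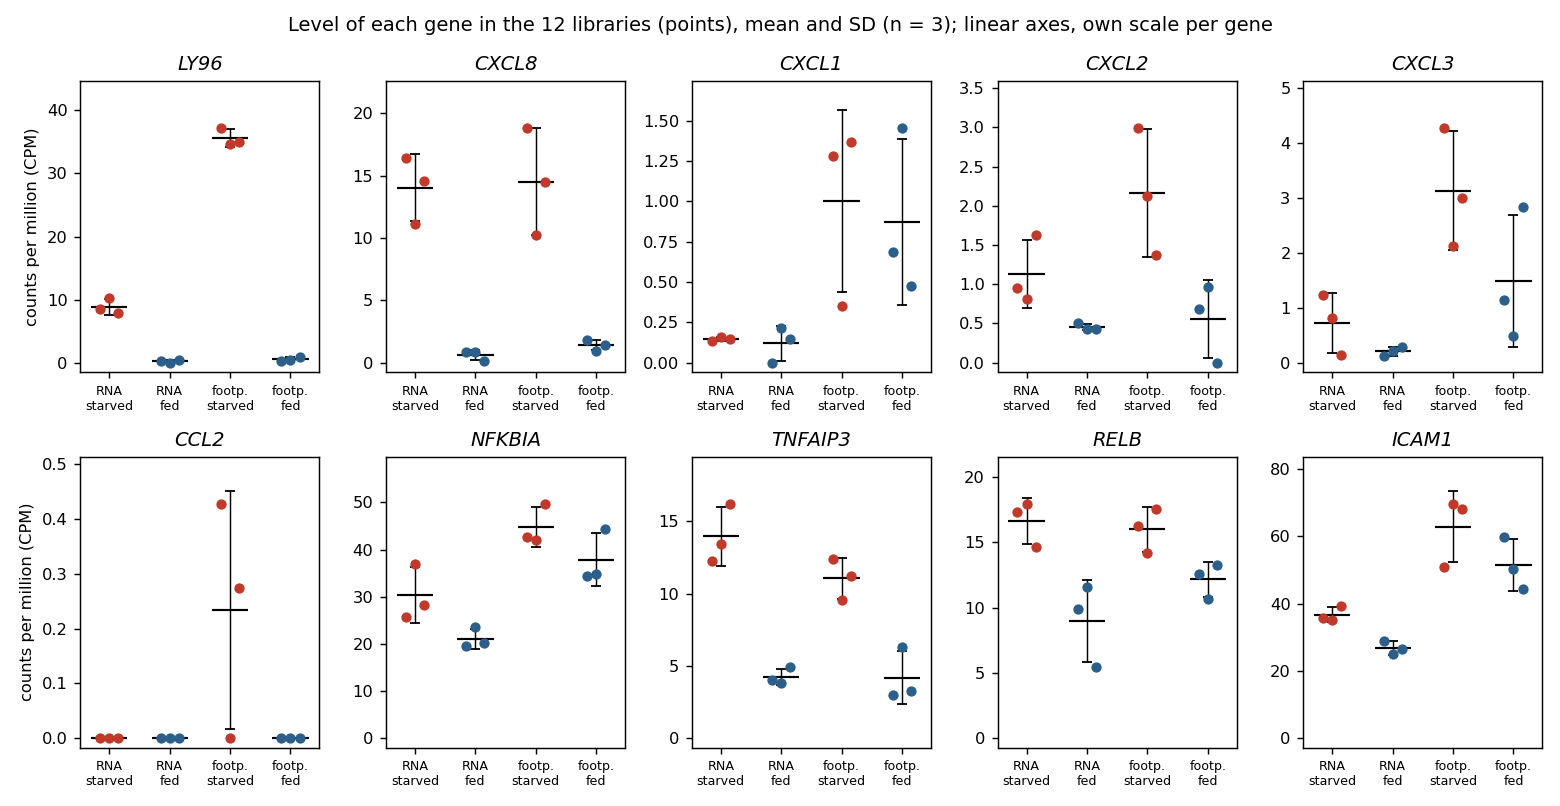
Level of each of the 10 genes in CPM (y axis, linear, own scale for each gene) in starved (red) and fed (blue) libraries of RNA and of footprints (footp.); points are libraries, the line is the mean and the bars are the SD (n = 3). LY96 and CXCL8 separate widely in both assays, CXCL1 and CXCL3 overlap between groups, and CCL2 has points above 0 in 2 starved footprint libraries alone.

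TNFAIP3, a negative regulator, rose in both assays. Its RNA had 90, 83 and 110 counts in starved replicates 1 to 3, against 32, 18 and 34 counts in fed replicates 1 to 3. Its footprints had 29, 27 and 41 counts in starved libraries, against 13, 13 and 7 in fed libraries. RNA averaged 13.98 ± 2.03 CPM in starved and 4.26 ± 0.564 CPM in fed cells, and footprints 11.05 ± 1.44 CPM in starved and 4.19 ± 1.83 CPM in fed cells (SD, n = 3 each). Groups did not overlap in either assay. The log2 fold changes were 1.81 (SE 0.18) in RNA, higher than 98.5% of transcripts in the fit, and 1.43 (SE 0.31) in footprints, higher than 97.9%.

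NFKBIA rose in RNA and was not called in footprints. Its RNA averaged 30.3 ± 5.91 CPM in starved and 21.1 ± 2.14 CPM in fed cells (SD, n = 3 each), from 189, 229 and 191 counts in starved and 156, 110 and 140 counts in fed replicates 1 to 3. The lowest starved library was above the highest fed library in CPM, and the log2 fold change was 0.64 (SE 0.12). Its footprints averaged 44.9 ± 4.24 CPM in starved and 37.9 ± 5.63 CPM in fed cells (SD, n = 3 each), and here the groups overlapped. The footprint log2 fold change was 0.21, with a 95% interval of −0.12 to 0.55, and was not called.

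RELB, the NF-kB subunit, rose in RNA to 16.6 ± 1.78 CPM in starved cells, against 8.98 ± 3.15 CPM in fed cells (SD, n = 3 each). The counts were 127, 111 and 99 in starved and 79, 54 and 38 in fed replicates 1 to 3, and the log2 fold change was 1.03 (SE 0.17). Fed replicate 3 was the lowest of the 6 libraries. RELB footprints averaged 15.97 ± 1.69 CPM in starved and 12.2 ± 1.34 CPM in fed cells (SD, n = 3 each). The starved footprint libraries all lay above the fed ones, yet the log2 fold change of 0.34 (95% interval −0.07 to 0.76) was not called.

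ICAM1 RNA averaged 36.8 ± 2.17 CPM in starved and 26.9 ± 1.99 CPM in fed cells (SD, n = 3 each), with 262, 218 and 266 counts in starved and 231, 117 and 184 counts in fed replicates 1 to 3. The groups did not overlap, and the log2 fold change of 0.56 (SE 0.10) was the smallest RNA change of the 6. Footprints averaged 62.9 ± 10.4 CPM in starved and 51.5 ± 7.78 CPM in fed cells (SD, n = 3 each). The groups overlapped, since starved replicate 1 was below fed replicate 1, and the log2 fold change of 0.23 (95% interval −0.12 to 0.59) was not called.

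Over the 6 fitted genes, all starved RNA libraries lay above all fed ones in 6 and all starved footprint libraries in 4. Of these, 2 in RNA and 3 in footprints (all but RELB) had entered the fit through the starved group, so nothing is read from these counts. The same held for 28.6% of all transcripts in the RNA fit and 26.6% of those in the footprint fit. In the RefSeq gene table, TNFAIP3 overlaps the non-coding gene WAKMAR2, and ICAM1 overlaps the non-coding genes LIMASI and ICAM4-AS1. LY96 has 3 pseudogenes within its span, and the other 7 genes overlap no listed gene. These overlaps are of whole gene spans, and overlap of exons was not checked. Whether counting used strand is not given in the sources used here. Whether reads of an overlapping gene were counted with these genes therefore cannot be told.

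**Figure D3:**
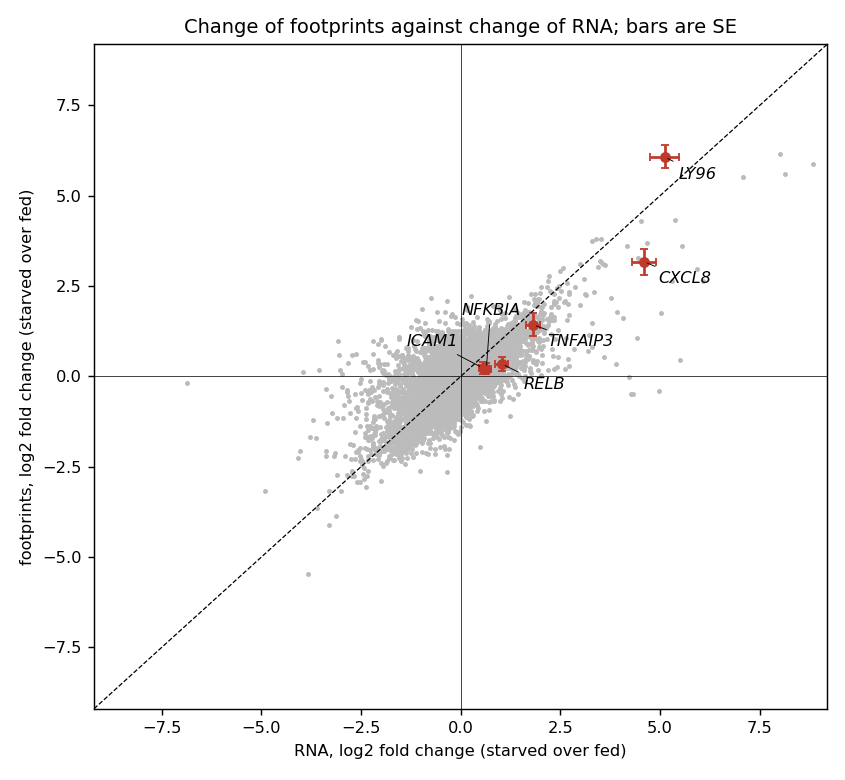
Footprint log2 fold change (y axis) against RNA log2 fold change (x axis), starved over fed, for the 6 fitted genes (red, bars are SE) and the other transcripts fitted in both assays (grey); the dashed line marks equal changes. LY96 lies above the line at 5.11 and 6.08, and CXCL8, TNFAIP3, RELB, NFKBIA and ICAM1 lie below it. The SEs of LY96 and CXCL8 are smaller than their counting error.

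Translational efficiency is the number of footprints per RNA of a transcript, and its change was fitted over all 12 libraries as an interaction between assay and arginine level. By edgeR none of the 6 genes was called, none had an unadjusted p under 0.05, and the Wald test of DESeq2 called none either. Over all 11027 transcripts 11.1% were called higher and 11.7% lower, that is 1227 and 1292 transcripts, but 1567 and 803 with library totals alone. An uncalled ratio is not shown to be the same in both groups, since the intervals were wide. LY96 had a log2 change of efficiency of 1.14 (95% interval −0.88 to 3.16), and it was 0.51 without RNA fed replicate 3. CXCL8 had −1.32 (−2.77 to 0.14), and RELB had −0.60 (−1.23 to 0.02). NFKBIA, TNFAIP3 and ICAM1 had −0.33, −0.28 and −0.25, with intervals that all included 0. The value of TNFAIP3 was 0.045 without footprint fed replicate 2.

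**Figure D4:**
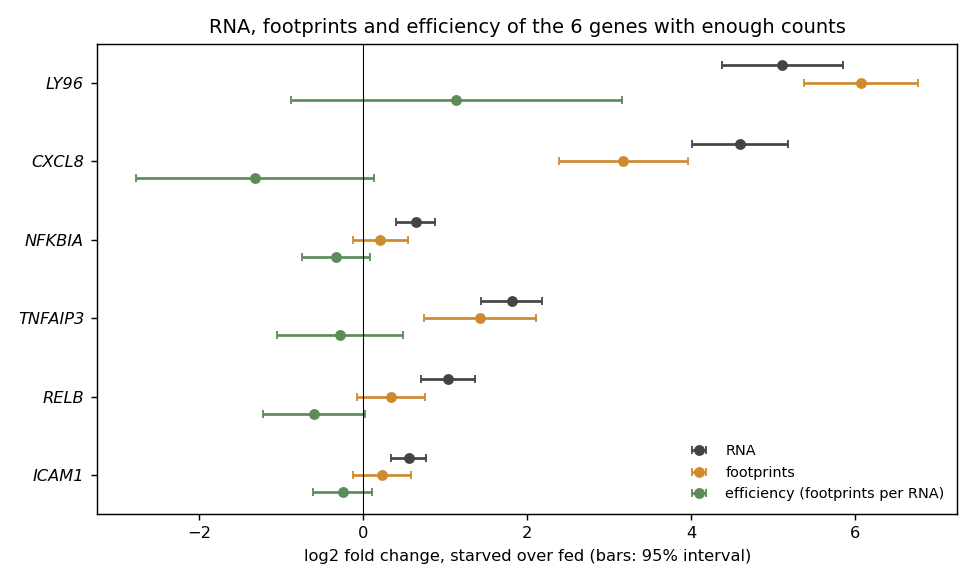
Log2 fold changes, starved over fed (x axis), of RNA, footprints and efficiency for the 6 fitted genes, with 95% intervals. RNA intervals lie above 0 for all 6, footprint intervals include 0 for NFKBIA, RELB and ICAM1, and efficiency intervals include 0 for all 6. The RNA and footprint intervals of LY96 and CXCL8 are narrower than their exact counting intervals.

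The level of the ratio within each condition placed the genes differently. It was computed as mean footprint CPM over mean RNA CPM of the same transcript, so that transcript length cancels if both assays were counted over the same region. In starved cells the ratio was 4.04 for LY96, 1.71 for ICAM1, 1.48 for NFKBIA, 1.03 for CXCL8, 0.960 for RELB and 0.791 for TNFAIP3, against a median of 0.919 over 11026 transcripts. In fed cells the ratio was 2.43 for LY96, 2.25 for CXCL8, 1.92 for ICAM1, 1.80 for NFKBIA, 1.35 for RELB and 0.985 for TNFAIP3, against a median of 0.878 over 11024 transcripts. LY96 thus stood above 93.1% of transcripts in starved and above 90.4% in fed cells. CXCL8 stood above 55.4% in starved and above 88.8% in fed cells. The fed ratios rest on 4 footprint and 5 RNA counts for LY96 and on 13 footprint and 12 RNA counts for CXCL8, so their places are loose, and no test was made. The log2 ratio of LY96 was 2.01 in starved and 1.28 in fed cells, but the fed value was 2.14, above the starved one, without RNA fed replicate 3. It was 0.69 without RNA fed replicate 2 and 0.65 without footprint fed replicate 3, so 1 library decides the order of starved and fed cells in this ratio.

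By Pearson correlation of log2 CPM over the 12 libraries, which span 2 assays and 2 conditions, the transcripts most like LY96 among 11026 were ENST00000216117 and ENST00000444739, both with r = 0.9855. The files pair neither with a gene name. ENST00000216117 averaged 318.6 ± 23.3 CPM in starved and 42.4 ± 6.47 CPM in fed RNA, and 638.3 ± 109.5 CPM in starved and 72.0 ± 2.13 CPM in fed footprints (SD, n = 3 each). ENST00000444739 averaged 209.9 ± 6.17 CPM in starved and 63.5 ± 4.98 CPM in fed RNA, and 308.6 ± 11.2 CPM in starved and 75.7 ± 5.70 CPM in fed footprints (SD, n = 3 each). Both had more footprints and more RNA in starved cells, as LY96 had. They were chosen for their likeness to LY96 over these same libraries, so nothing is read from that. Among the listed genes the correlation with LY96 was 0.909 for CXCL8, 0.851 for TNFAIP3, 0.704 for RELB, 0.667 for NFKBIA and 0.625 for ICAM1. In the same order these ranked 179, 358, 855, 998 and 1162 among the 11026 transcripts, of which 57 reached 0.95. Many other transcripts were thus more like LY96, and no tie of the listed genes to LY96 is read from these values.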

How the data were processed

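Both deposited tables hold raw counts per Ensembl transcript, given by the authors as whole numbers with no scaling. Per the labels' protocols, RNA libraries were made with a TruSeq kit, while RiboCop served to deplete ribosomal RNA for footprints. The submitters' processing notes name STAR, cutadapt, UMI-tools, DESeq2 and the build GRCh38.p13. How and over which region reads were counted, and how strand and shared reads were treated, is not stated there. Reads shared by isoforms, or footprints outside the coding sequence, could change the counts of a gene.

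Counts were fitted with edgeR 4.0.16 in R 4.3.3 (TMM factors, filterByExpr, two-sided quasi-likelihood F test, Benjamini-Hochberg over all transcripts). Each assay had its own fit on arginine level, and efficiency was an interaction over all 12 libraries. Standard errors and fitted intervals were derived from the F statistic, and they are too small for large changes over few counts. CPM used library totals, and log2 CPM a prior count of 2. The fits were run on simulated counts with known changes in transcripts that passed the filter. That run did not examine the standard errors or the intervals. Every sample column was used. Replicate pairs differed by more than sampling noise, with chi-square per degree of freedom of 2.07 to 7.73.

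The members and lists were chosen with earlier results of these data known. Gene names come from the list of members. Of 19849 transcript IDs, 0 matched the gene name table, so other pathway genes and cell type markers, including those of the labelled epithelial origin, were not analysed here. All members, and the 2 transcripts most correlated with LY96, were named by a fixed rule. Python 3.11.15 and SciPy 1.17.1 gave exact intervals, and DESeq2 1.42.0 was an alternative.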

Additional observations from a re-analysis of the deposited data

How the results depend on the processing

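The number of listed genes called stayed at 6 higher in RNA, 3 higher in footprints and 0 in efficiency with DESeq2 size factors, library totals alone and the Wald test of DESeq2, and when each library was left out in turn. Without a filter on low counts 8 genes were called higher in RNA, CXCL2 and CXCL3 being added. The added calls rest on 23 starved against 9 fed counts for CXCL2 and 15 against 4 for CXCL3. Footprint calls stayed at 3 in that setting and efficiency calls at 0. Over all transcripts 3999 were then called higher and 4013 lower in RNA, so nothing is read from the count of 8. With CXCL1, CXCL2 and CXCL3 summed the counts were 7 in RNA and 4 in footprints. The added call was the sum, which passed the filter only through the starved group. Over all transcripts, library totals alone gave 803 with lower efficiency, against 1292 with TMM factors. The replicate block gave 6 genes in RNA, 3 in footprints and 0 in efficiency, and changed no call of a listed gene. The deviations of same-numbered starved and fed libraries had correlations of −0.02, 0.01 and 0.22 in RNA and −0.32, −0.05 and −0.04 in footprints. Different-numbered libraries had values from −0.212 to 0.201 in RNA and from −0.15 to 0.194 in footprints. With 3 libraries in each group these values cannot decide whether the same number marks a pair. The main fits did not take the numbers as pairs, and the replicate block did. Between same-numbered footprint and RNA libraries the correlations were 0.286, 0.105 and −0.06 in starved and −0.04, 0.04 and −0.08 in fed cells. Whether these came from the same culture is not given, and the efficiency fit treated all 12 libraries as independent. The efficiency change of TNFAIP3 lay between −0.59 and 0.045 when single libraries were left out, with the sign turned without footprint fed replicate 2, and the cause was not tested. Depth limits CXCL1, CXCL2, CXCL3 and CCL2, and the fed values of LY96 and CXCL8.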
